A study of Homo sapiens with 6 samples.

Results

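The genes of the autophagy machinery and its cargo receptors were examined after stable knockdown of STIL in EJ, an established line of human bladder cancer cells. They were taken as the gene symbols that begin with ATG and a digit together with 22 further genes named by symbol, from the kinase ULK1 to the fusion protein STX17. This gave 40 of the 15953 genes in the deposited tables, and each of the 40 was present. RNA-seq was conducted in 2 groups of 3 libraries. shSTIL cells carried a STIL-knockdown lentivirus and shNC cells the matching negative-control lentivirus; both were stable, and the methods state no treatment other than culture with serum. The sources used here give neither the hairpin sequence, the number of hairpins, nor whether the stable cells were 1 clone or a pool. The sample labels read shNC and shSTIL, while the columns of the deposited tables are headed siNC and siSTIL, and the groups are named here by the labels. The labels number the libraries as replicates without saying whether they came from separate cultures, so the p-values measure only the spread between these libraries, which may be technical.

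Autophagy encloses cytoplasm in a double membrane, the autophagosome, and delivers it to the lysosome. The ULK complex starts the process, a class III PI3-kinase complex marks the forming membrane with the lipid PI3P, and ATG2 and ATG9 proteins supply further lipid. A ubiquitin-like system of ATG7, ATG3, ATG10 and the ATG12-ATG5-ATG16L1 complex then links ATG8 proteins (the LC3 and GABARAP families) to the membrane, where cargo receptors such as SQSTM1 bind them. In growing cells the nutrient kinase mTORC1 holds the ULK complex back.

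Recovered library totals ran from 16214772 to 16431243 reads in shNC and from 16734469 to 16901634 in shSTIL cells. STIL itself stood at 25.2% of its control level in shSTIL cells (limma adjusted p = 6.1e-12), and every shSTIL library lay below every shNC library. Of 16 epithelial and urothelial markers, KRT7, KRT8 and KRT18 had a mean log2 CPM of 6.75, 8.21 and 9.30, whereas 9 others, EPCAM, CDH1, GATA3 and 3 uroplakins among them, lay under 1 and KRT19 and UPK3A were not in the tables used here. The mesenchymal gene VIM had a mean log2 CPM of 10.18. Of 6 markers of other cell types, 3 were in these tables, CD68, COL1A1 and PECAM1, at a mean log2 CPM of 3.63, 1.18 and -1.59, and PTPRC, CD3E and HBB were not. Their summed level was 14 to 16.4 CPM in shNC and 14.4 to 16.9 CPM in shSTIL libraries, and 1 of the 3, COL1A1, was called lower. The summed level of the 14 epithelial and urothelial markers in the tables was 1106 to 1165 CPM in shNC and 1001 to 1034 CPM in shSTIL libraries (2 called higher, 3 lower), and that of 4 mesenchymal markers 1562 to 1604 CPM in shNC and 969.7 to 989 CPM in shSTIL libraries (none higher, 2 lower, VIM and FN1). None of these markers was at 0 reads in every library, and whether the cell state they reflect has a part in the values of the autophagy genes was not tested. In such bulk RNA, a change in the share of cells in a given state and a change in RNA per cell cannot be told apart.

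More autophagy genes were higher than lower in shSTIL cells. MAP1LC3B, whose product LC3B coats the autophagosome membrane, rose most, and the initiation genes ATG101, RB1CC1 and ULK1, the lipid transfer gene ATG2B, GABARAPL1 and the receptors OPTN, SQSTM1 and NBR1 rose as well. ATG10, ATG16L2, ATG2A and UVRAG were the members that fell most. At a limma adjusted p under 0.01, 21 of the 40 members (52.5%) were called higher, 8 (20%) lower and 11 were not called. In fits that each left out 1 library 13 to 17 were called higher and 3 to 5 lower, with 13 higher without shSTIL replicate 2 or 3 and 3 lower without shSTIL replicate 2. Over all genes 23.5% were called higher and 23.6% lower. Most members are well expressed, and 38 of the 40 had a mean log2 CPM of at least 1. Among the 11319 genes at that level 30.5% were called higher and 31.4% lower. All shSTIL values lay above all shNC values for 22 members and below them for 9, against 29.9% and 30.5% of all genes. The median log2 fold change was 0.19 over the 40 members, 0.0052 over all genes and -0.0070 over the 11319 genes. The members' median relative to the shNC mean was 0.15, 0.14 and 0.16 in the 3 shSTIL libraries. The plot of members by library shows the same values gene by gene.

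**Figure D1:**
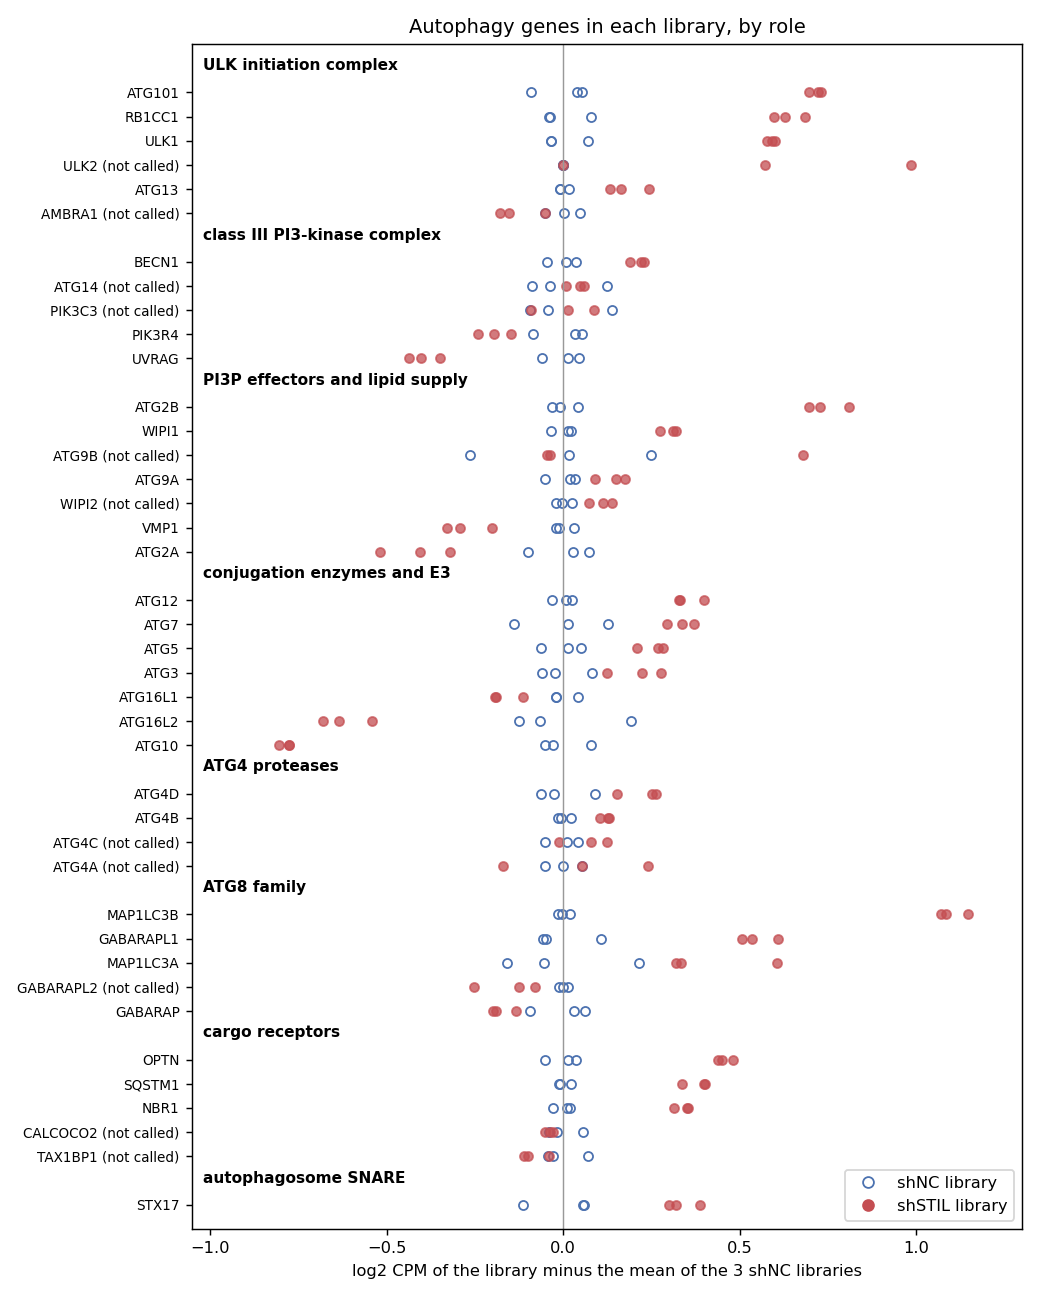
Log2 CPM of each of the 40 autophagy genes in each library, minus the mean of the 3 shNC libraries, grouped by role (open circles, shNC; filled circles, shSTIL). The filled circles lie to the right of all open ones for 22 genes and to the left for 9, with MAP1LC3B farthest to the right and ATG10 farthest to the left.

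Sequences that bear on these genes are the seed sites of the siRNAs the study lists against STIL and the stretches before an annotated start of the gene. The seed of an siRNA is bases 2 to 8 of its antisense strand, and a 3′ UTR that carries the matching bases can be bound without being the intended target. It is not stated whether any of these 3 sequences was the one in the lentivirus. In the antisense strands below, the capitals mark the seed.

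siSTIL#1: aAUAUGUAucgcaaacagc
siSTIL#2: uUAAUCCAgagaucacugc
siSTIL#3: uUGUGGAAcaguaagaugg

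The longest annotated 3′ UTR of each of the 40 members was searched for the 7 bases that pair with each seed. Among members, 4 carried the site of siSTIL#2 (3 called lower, 1 higher), 5 that of siSTIL#1 (none lower, 2 higher, 3 not called) and 5 that of siSTIL#3 (1 lower, 1 higher, 3 not called). Over 15408 genes the shares with a site were 11.1%, 16.8% and 15.5%. For none of the 3 seeds did the share of the 40 members with a site exceed that of all genes. The 4 siSTIL#2 sites are shown because 3 of the 8 lower members hold one, a choice made with the calls known. They are written 5′ to 3′ along the transcript with GRCh38 coordinates, and the capitals mark the bases that match the seed, with the A opposite base 1 where it is present.

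UVRAG, chr11:76142411-76142440, plus strand: gttgagatagtTGGATTAAgaggctagacg
ATG16L1, chr2:233294800-233294829, plus strand: actttaagcatTGGATTAAcggaaactccc
ATG10, chr5:82254172-82254200, plus strand: aagatgtgacaTGGATTAtttttcccttg
ATG12, chr5:115829038-115829066, minus strand: ttaacccaaacTGGATTAttcaccattct

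UVRAG and ATG16L1 hold the 8-base form TGGATTAA, and both were lower in shSTIL cells. The call of ATG16L1 was lost under 10 of the 16 alternative settings and that of UVRAG under 1. ATG10, the member with the largest fall, and ATG12, which rose, hold the 7-base form. Of all 626 genes with the 8-base form 32.7% were called lower and 17.3% higher, against 23.1% and 24% of genes with none of these siSTIL#2 sites. For the 8-base forms of siSTIL#1 and siSTIL#3 the shares went the other way. With siSTIL#1 19.8% were lower and 31.4% higher, against 24.9% and 21.9% of genes without its sites, and with siSTIL#3 22.2% and 27.9%, against 24.4% and 22.9%. TAX1BP1, which was not called, holds the shorter form GGATTAA alone. Genes with and without a site were not matched for 3′ UTR length or level, and the shares were not compared by a test. Whether these sites have a part in the values of the members was not tested.

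The 250 bases before an annotated start of the gene were available for 35 members from RefSeq (GRCh38.p14). Some of these windows lie inside the annotated span of the gene, among them those of MAP1LC3B, ATG5, BECN1 and AMBRA1. Other starts of the same genes were not searched. The sequence CACGTG, which reads the same on both strands and is the core of the element bound by TFEB, the transcription factor of lysosome and autophagy genes, was found before 2 of them, ATG3 and ATG14. That is 5.71%, beside 6.49% of all 27305 windows. ATG3 was called higher and ATG14 was not called. The windows of both genes are given with CACGTG in capitals, followed by that of MAP1LC3B, the member with the largest change, which holds no CACGTG.

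ATG3, chr3:112561963-112562212, minus strand: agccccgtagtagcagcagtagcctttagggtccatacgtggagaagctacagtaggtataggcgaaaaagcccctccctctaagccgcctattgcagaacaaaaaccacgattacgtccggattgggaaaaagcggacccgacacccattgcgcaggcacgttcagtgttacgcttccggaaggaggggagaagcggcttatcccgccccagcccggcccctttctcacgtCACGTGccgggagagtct
ATG14, chr14:55411831-55412080, minus strand: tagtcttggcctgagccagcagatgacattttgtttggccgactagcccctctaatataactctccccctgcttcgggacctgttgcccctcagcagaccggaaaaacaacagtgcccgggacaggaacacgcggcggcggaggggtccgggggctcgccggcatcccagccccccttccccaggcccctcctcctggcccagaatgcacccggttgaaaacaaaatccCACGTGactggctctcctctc
MAP1LC3B, chr16:87392086-87392335, plus strand: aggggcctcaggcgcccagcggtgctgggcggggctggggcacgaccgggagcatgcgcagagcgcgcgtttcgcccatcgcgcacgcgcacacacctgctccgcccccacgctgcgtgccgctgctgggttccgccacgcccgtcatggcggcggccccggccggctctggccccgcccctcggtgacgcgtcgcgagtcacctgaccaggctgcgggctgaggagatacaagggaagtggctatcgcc

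GGGCGG or its complement CCGCCC was found before 22 of the 35 members (62.9%) and 42.3% of all windows, and CCAAT or ATTGG before 11 (31.4%) and 33%. These are matches of letters in a short window and give no binding. The windows of all genes were not limited to the genes measured here or matched to the members for level. The shares were not compared by a test.

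The initiation complex consists of the kinase ULK1 or ULK2 with ATG13, ATG101 and the scaffold RB1CC1, and AMBRA1 assists it. Of these 6 genes 4 rose, none fell and 2 were not called. ULK1, which phosphorylates the other subunits, lies at chr12:131894651-131923167 in the GRCh38 build used throughout and had a log2 CPM of 7.39, 7.28 and 7.28 in the shNC libraries and 7.89, 7.91 and 7.92 in the shSTIL libraries. The groups lay well apart, with 2478 to 2684 reads per shNC library and 4069 to 4135 per shSTIL library, and the log2 fold change was 0.59 (standard error 0.03, adjusted p = 9.7e-09). For ATG101, which stabilises ATG13, log2 CPM was 5.18, 5.05 and 5.19 in the shNC libraries and 5.86, 5.87 and 5.83 in the shSTIL libraries. Every shSTIL value exceeded every shNC value, by a mean of 0.72 (standard error 0.05, adjusted p = 4.0e-08). RB1CC1, known as FIP200, was at 6.25, 6.37 and 6.25 in the shNC libraries and 6.97, 6.92 and 6.89 in the shSTIL libraries. Its rise was 0.64 (standard error 0.04, adjusted p = 2.5e-08), again without overlap. ATG13, the adaptor of the complex, rose by less, 0.18 (standard error 0.04, adjusted p = 0.00104), a call that was lost without any of the 3 shNC libraries and without shSTIL replicate 2 (adjusted p up to 0.0178). AMBRA1 differed by -0.13 (95% interval -0.24 to -0.01) and was not called. ULK2 was at 0 reads in every shNC library and at 1, 0 and 2 reads in the shSTIL libraries, all under the 3 reads that a count of 0 allows, so ULK1 was the kinase with reads to compare and no fold is given for ULK2.

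The class III PI3-kinase complex has the catalytic subunit PIK3C3 (VPS34), the pseudokinase PIK3R4 (VPS15) and BECN1 in common, with ATG14 or UVRAG as the alternative subunit. Of its 5 genes 1 rose, 2 fell and 2 were not called. BECN1 had a log2 CPM of 6.31, 6.34 and 6.26 in the shNC libraries and 6.49, 6.54 and 6.53 in the shSTIL libraries, a rise of 0.21 (standard error 0.04, adjusted p = 2.3e-04). UVRAG, the subunit of the complex that acts on endosomes and late autophagosomes, was at 5.12, 5.22 and 5.19 in the shNC libraries and 4.83, 4.74 and 4.77 in the shSTIL libraries. All 3 shSTIL values of UVRAG were below the shNC values, with 554 to 606 reads per shNC library and 457 to 483 per shSTIL library and a log2 fold change of -0.40 (standard error 0.05, adjusted p = 2.5e-05). PIK3R4 fell by 0.20 (standard error 0.05, adjusted p = 0.00464), although this call was lost with DESeq2 (adjusted p = 0.0133), under median centring, without shNC replicate 2, without shNC replicate 3 and without each shSTIL library (adjusted p up to 0.0531 without a library). ATG14, which directs the complex to the forming autophagosome, differed by 0.04 (95% interval -0.11 to 0.19). PIK3C3 differed by 0.00 (95% interval -0.14 to 0.15), and neither was called. The log2 ratio of BECN1 to UVRAG rose from a mean of 1.13 in shNC to 1.74 in shSTIL cells.

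Of the 7 genes that act on PI3P or supply lipid 3 rose, 2 fell and 2 were not called, and the paralogs ATG2A and ATG2B moved in opposite directions. ATG2 proteins form bridges that carry lipid from the endoplasmic reticulum to the growing membrane. The log2 CPM of ATG2B (chr14:96279202-96363870) was 5.27, 5.33 and 5.25 in the shNC libraries and 6.09, 5.98 and 6.01 in the shSTIL libraries. It rose by 0.74 (standard error 0.05, adjusted p = 1.3e-08), with 604 to 652 reads per shNC library and 1084 to 1165 per shSTIL library. In contrast, ATG2A (chr11:64894546-64917248) was at 5.59, 5.55 and 5.42 in the shNC libraries and 5.11, 5.0 and 5.20 in the shSTIL libraries, a log2 fold change of -0.41 (standard error 0.06, adjusted p = 6.0e-05). The call of ATG2A was lost without shNC replicate 1 or 2 and without shSTIL replicate 1 or 2 (adjusted p up to 0.015), while that of ATG2B was kept in each of these fits. The log2 ratio of ATG2B to ATG2A was -0.32, -0.22 and -0.17 in the shNC libraries and 0.98, 0.98 and 0.81 in the shSTIL libraries. These ratios take no account of length. Per kb of transcript ATG2A stayed above ATG2B in every library, with 7.21 ± 0.442 CPM per kb in shNC cells and 5.41 ± 0.387 in shSTIL cells for ATG2A and 2.84 ± 0.076 CPM per kb in shNC cells and 4.77 ± 0.197 in shSTIL cells for ATG2B (SD, n = 3). Across 6 ratios between members compared in this way, each gave p = 0.1 in an exact two-sided permutation test (adjusted p = 0.1), which is the smallest p that the 20 labellings of 3 libraries against 3 allow. Each ratio set a member with all shSTIL values above the shNC values over a member with all of them below. Separation of the ratios was therefore fixed by the values of the single genes, and the ratios add no separate test.

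VMP1, an endoplasmic reticulum scramblase needed for the first membrane, was the most abundant gene of this role per length, at 123 ± 2.37 CPM per kb in shNC cells and 102 ± 4.38 in shSTIL cells (SD, n = 3). Its log2 CPM was 8.37, 8.37 and 8.42 in the shNC libraries and 8.09, 8.18 and 8.06 in the shSTIL libraries, a fall of 0.27 (standard error 0.04, adjusted p = 2.0e-05). WIPI1, a PI3P-binding propeller protein, rose by 0.30 (standard error 0.04, adjusted p = 5.4e-05). Its relative WIPI2, which recruits ATG16L1, differed by 0.11 (95% interval 0.03 to 0.18) and did not pass the threshold (adjusted p = 0.0204), although its groups did not overlap and it was called higher under median centring (adjusted p = 0.00267). ATG9A, the transmembrane scramblase carried by vesicles, rose by 0.14 (standard error 0.04, adjusted p = 0.00492), a call lost without any 1 of the 6 libraries (adjusted p up to 0.059). In the annotation 44.8% of the 50-base words of the ATG9A transcript also occur in transcripts of the overlapping gene AC068946.2, so some of its reads could come from either gene. ATG9B had only 3 to 8 reads per library and was not called.

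**Figure D2:**
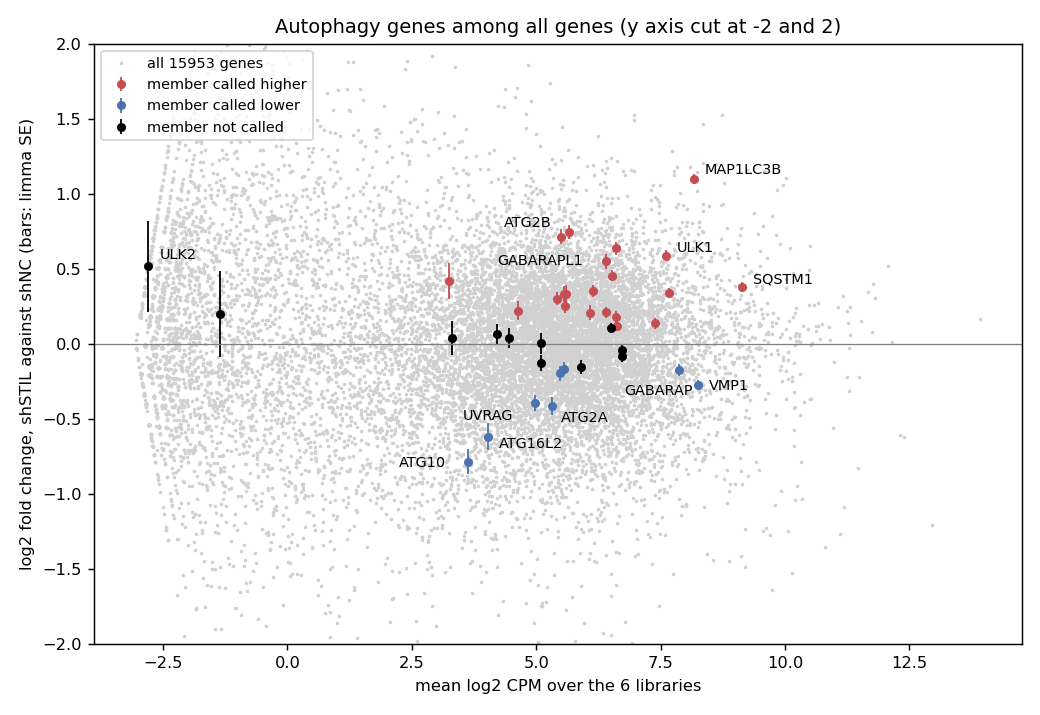
Log2 fold change of shSTIL against shNC (y axis, bars are limma standard errors) against the mean log2 CPM over the 6 libraries (x axis) for the 40 autophagy genes, over all 15953 genes in grey. The axis is cut at -2 and 2, which leaves out 91 of the grey genes. MAP1LC3B stands at 1.10, while ATG10 and ATG16L2 are the lowest members at -0.79 and -0.62.

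The 7 conjugation genes were all called, 4 higher and 3 lower. ATG12 had a log2 CPM of 5.93, 5.97 and 5.99 in the shNC libraries and 6.36, 6.30 and 6.29 in the shSTIL libraries, a rise of 0.35 (standard error 0.04, adjusted p = 3.8e-06). ATG7, the E1 enzyme of both conjugation reactions, rose by 0.33 (standard error 0.06, adjusted p = 3.4e-04), a call lost without shNC replicate 2 or any shSTIL library (adjusted p up to 0.037). The acceptor ATG5 rose by 0.25 (standard error 0.05, adjusted p = 3.7e-04), a call lost without shSTIL replicate 2 or 3 (adjusted p up to 0.0145). ATG3, the E2 enzyme for ATG8 proteins and the most abundant gene of this role per length, was at 5.92, 6.06 and 5.95 in the shNC libraries and 6.10, 6.25 and 6.20 in the shSTIL libraries. Its rise of 0.21 (standard error 0.05, adjusted p = 0.00277) lost its call whichever library was left out (adjusted p up to 0.071).

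ATG10, the E2 enzyme that passes ATG12 to ATG5, changed the other way. Its gene lies at chr5:81972025-82276857, and log2 CPM was 3.96, 4.09 and 3.98 in the shNC libraries and 3.21, 3.24 and 3.24 in the shSTIL libraries. With 248 to 276 reads per shNC library and 156 to 160 per shSTIL library, the fall was 0.79 (standard error 0.08, adjusted p = 2.3e-06), and the level in shSTIL cells was 58% of that in shNC cells. ATG16L2, a relative of ATG16L1 with no settled role in bulk autophagy, was at 4.54, 4.22 and 4.28 in the shNC libraries and 3.80, 3.66 and 3.71 in the shSTIL libraries. The groups of ATG16L2 did not overlap, and its log2 fold change was -0.62 (standard error 0.09, adjusted p = 4.8e-05). This call was lost without shSTIL replicate 2 or 3 (adjusted p up to 0.0145). ATG16L1, which places the conjugation complex on the membrane, fell by 0.17 (standard error 0.04, adjusted p = 0.00614), but was not called without any of the 3 shNC libraries, without shSTIL replicate 1 or 2, with DESeq2 (adjusted p = 0.0304) or under median centring (adjusted p up to 0.0323 without a library). The log2 ratio of ATG12 to ATG10 rose from a mean of 1.95 in shNC to 3.09 in shSTIL cells, and that of ATG5 to ATG16L1 from -0.20 to 0.22.

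The ATG4 proteases trim ATG8 proteins before conjugation and remove them from membranes afterwards, and 2 of the 4 genes rose while none fell. ATG4B, the most abundant per length, had a log2 CPM of 6.60, 6.56 and 6.57 in the shNC libraries and 6.70, 6.68 and 6.70 in the shSTIL libraries, a rise of 0.12 (standard error 0.03, adjusted p = 0.00731). ATG4D rose by 0.22 (standard error 0.06, adjusted p = 0.00848). Both were close to the threshold, and without 1 library the adjusted p reached 0.0165 for ATG4B, lost without shNC replicate 2 or 3 or shSTIL replicate 1 or 3, and 0.0621 for ATG4D, lost in each such fit other than that without shNC replicate 1. On recovered reads edgeR did not call ATG4B and DESeq2 called neither. ATG4A and ATG4C were not called, at 0.04 (95% interval -0.20 to 0.28) and 0.06 (95% interval -0.09 to 0.21).

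Of the 5 ATG8 genes 3 were higher, 1 was lower and 1 was not called. MAP1LC3B (chr16:87383995-87404779) had a log2 CPM of 7.61, 7.60 and 7.63 in the shNC libraries and 8.68, 8.76 and 8.70 in the shSTIL libraries, from 3129 to 3158 reads per shNC library and 7022 to 7452 per shSTIL library. Every shSTIL library held more than double the reads of any shNC library, and the log2 fold change was 1.10 (standard error 0.03, adjusted p = 1.3e-11). GABARAPL1 was at 6.07, 6.06 and 6.22 in the shNC libraries and 6.65, 6.73 and 6.63 in the shSTIL libraries, a rise of 0.55 (standard error 0.05, adjusted p = 4.0e-07). MAP1LC3A, at 3.25, 2.88 and 2.98 in the shNC libraries and 3.37, 3.64 and 3.36 in the shSTIL libraries, had the widest spread among these and rose by 0.42 (standard error 0.12, adjusted p = 0.00964), a call lost whichever library was left out and with DESeq2 (adjusted p up to 0.105 without a library).

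GABARAP, by contrast, was at 8.01, 7.86 and 7.98 in the shNC libraries and 7.76, 7.75 and 7.82 in the shSTIL libraries. The fall of 0.18 (standard error 0.04, adjusted p = 0.00214) did not keep its call under median centring, without shNC replicate 1 or 3 or without any shSTIL library (adjusted p up to 0.0673 without a library). GABARAPL2 differed by -0.15 (95% interval -0.26 to -0.05) and was not called (adjusted p = 0.0141), although it was called lower by edgeR on recovered reads (adjusted p = 0.00966) and by limma on genes with a mean log2 CPM from 1 up (adjusted p = 0.00801). In the annotation 42% of the 50-base words of GABARAP recur in other genes, most of them in the overlapping gene AC120057.2, and 10% of those of MAP1LC3B recur in its near copy MAP1LC3B2, while 43.4% of those of MAP1LC3B2 recur in MAP1LC3B. Reads shared between such genes are divided by estimation. MAP1LC3B2 itself had 12 to 18 reads per shNC library and 24 to 42 per shSTIL library, few beside those of MAP1LC3B, and was called higher (0.86, adjusted p = 0.00877). Whether these are reads of MAP1LC3B was not tested.

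Per length of transcript, on the scale of CPM per kb, GABARAP was the highest ATG8 gene in shNC cells and MAP1LC3B in shSTIL cells. GABARAP had 152 ± 8.5 CPM per kb in shNC cells and 134 ± 3.65 in shSTIL cells (SD, n = 3). MAP1LC3B had 72.8 ± 0.828 CPM per kb in shNC cells and 156 ± 4.16 in shSTIL cells (SD, n = 3), and the libraries of the 2 genes did not overlap in either group. MAP1LC3B thus made up 21.7, 22.8 and 22.1% in the shNC libraries and 38.1, 38.9 and 38.4% in the shSTIL libraries of the summed level of the 5 genes. The share of GABARAP was 47.3, 45 and 46.4% in the shNC libraries and 33.1, 31.8 and 34.3% in the shSTIL libraries. MAP1LC3A stayed the lowest, at 5.18 ± 0.717 CPM per kb in shNC cells and 6.95 ± 0.792 in shSTIL cells. The lengths are those of 1 annotated transcript per gene. Another choice of transcript would change the levels, the shares and possibly the order of the genes, but not the fold change of any single gene.

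**Figure D3:**
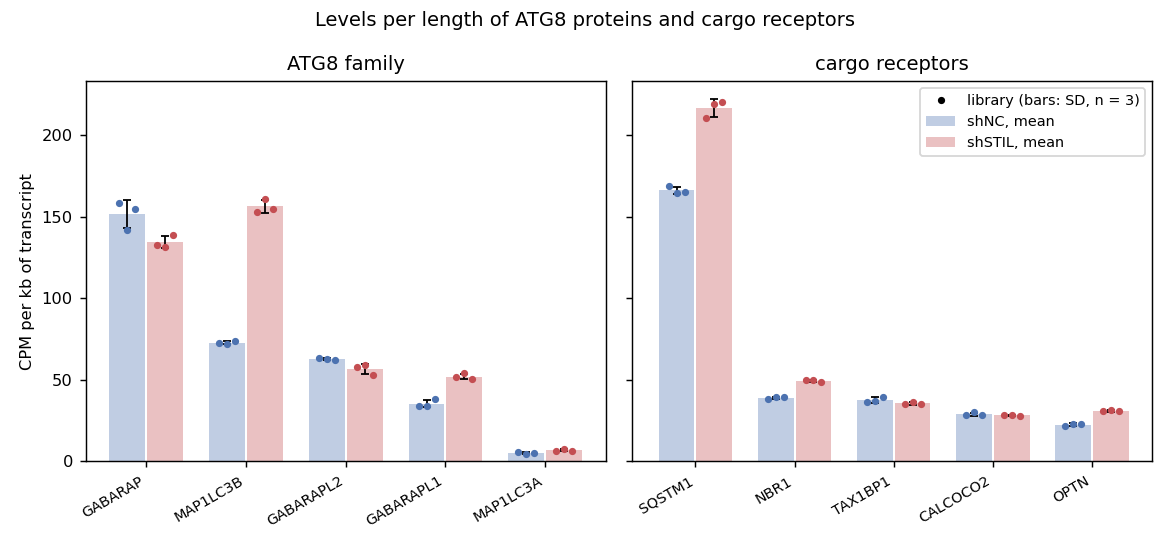
CPM per kb of transcript of the 5 ATG8 genes and the 5 cargo receptors in shNC and shSTIL cells (bars, mean; points, libraries; error bars, SD, n = 3). The bar of MAP1LC3B goes from 72.8 to 156 and passes that of GABARAP, and SQSTM1 is the highest receptor in both groups.

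Cargo receptors bind ubiquitinated cargo and ATG8 proteins at once, and 3 of the 5 genes rose while none fell. SQSTM1 (chr5:179806398-179838078), also called p62, was the most abundant of all 40 members per length, with 166 ± 2.14 CPM per kb in shNC cells and 217 ± 5.53 in shSTIL cells (SD, n = 3). Its log2 CPM was 8.98, 8.94 and 8.95 in the shNC libraries and 9.29, 9.35 and 9.36 in the shSTIL libraries, a rise of 0.38 (standard error 0.03, adjusted p = 2.1e-07). NBR1, a receptor related to SQSTM1, was at 7.47, 7.52 and 7.51 in the shNC libraries and 7.86, 7.86 and 7.82 in the shSTIL libraries. It rose by 0.34 (standard error 0.03, adjusted p = 5.6e-07), without overlap. OPTN, a receptor for bacteria and damaged mitochondria, was at 6.25, 6.31 and 6.33 in the shNC libraries and 6.75, 6.78 and 6.74 in the shSTIL libraries, which made the largest rise among the receptors, 0.46 (standard error 0.04, adjusted p = 1.8e-07). TAX1BP1 and CALCOCO2 (NDP52), which share a domain type and also act on bacteria and mitochondria, were not called, at -0.08 (95% interval -0.17 to 0.00) and -0.04 (95% interval -0.12 to 0.04).

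STX17, the SNARE that autophagosomes acquire before they fuse with lysosomes, had a log2 CPM of 5.27, 5.44 and 5.44 in the shNC libraries and 5.68, 5.70 and 5.77 in the shSTIL libraries. It rose by 0.34 (standard error 0.05, adjusted p = 1.2e-04), and the call was lost without any 1 of the shSTIL libraries (adjusted p up to 0.0178).

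Further genes of the pathway were read from 4 lists with 83 genes in these tables, of which 30 (36.1%) were called higher, 20 (24.1%) lower and 33 not called. Of these 83 genes 80 were expressed, taken as a mean log2 CPM from 1 up, and of the 11319 expressed genes 30.5% were called higher and 31.4% lower. Of 12 other ATG8, ULK, WIPI and phagophore genes 7 were higher (58.3%) and 3 lower (25%), with a median log2 fold change of 0.34. SH3GLB1, a membrane-curving partner of UVRAG, rose by 0.76 (standard error 0.04, adjusted p = 8.1e-09), and WAC, which promotes autophagy, by 0.70 (standard error 0.03, adjusted p = 6.0e-10). WDR45B, a WIPI relative, fell by 0.46 (standard error 0.03, adjusted p = 7.6e-08), and TMEM41B, a scramblase of the endoplasmic reticulum like VMP1, by 0.38 (standard error 0.04, adjusted p = 6.0e-06).

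Of 20 other selective receptors and their regulators 7 were higher (35%), 6 lower (30%) and 7 not called, shares near the 30.5% and 31.4% of expressed genes (median 0.11). BNIP3, a mitochondrial receptor induced by hypoxia, changed more than any of the 40 members, from a log2 CPM of 7.41 ± 0.03 to 5.80 ± 0.04 (SD, n = 3). Its log2 fold change was -1.61 (standard error 0.04, adjusted p = 2.0e-12). PHB2, a receptor of the inner mitochondrial membrane, was also lower (-0.53, adjusted p = 7.5e-08). CCPG1, a receptor for the endoplasmic reticulum, and BCL2L13, another mitochondrial receptor, were higher (0.52, adjusted p = 6.1e-08, and 0.44, adjusted p = 1.1e-06).

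Of the 17 genes of fusion with the lysosome 7 were lower (41.2%), 4 higher (23.5%) and 6 not called, beside 31.4% and 30.5% of expressed genes (median -0.11). LAMP2, a major protein of the lysosomal membrane, fell from a log2 CPM of 6.90 ± 0.03 to 6.20 ± 0.04 (SD, n = 3), by 0.70 (standard error 0.04, adjusted p = 2.7e-09). VAMP8, the lysosomal SNARE that pairs with STX17, fell by 0.54 (standard error 0.12, adjusted p = 0.0018) at 103 to 115 reads per shNC library and 76 to 86 per shSTIL library, a call lost without shNC replicate 1 or 2 and without shSTIL replicate 2 or 3 (adjusted p up to 0.0124). PLEKHM1, a tether of the lysosome, and YKT6, another SNARE, rose by 0.50 (standard error 0.05, adjusted p = 1.2e-06) and 0.38 (standard error 0.03, adjusted p = 4.7e-07).

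Of 34 genes of mTORC1, AMPK and TFEB regulation 12 were higher (35.3%), 4 lower (11.8%) and 18 not called, beside 30.5% and 31.4% of expressed genes (median 0.13). PRKAB1, a subunit of the energy sensor AMPK, rose by 0.63 (standard error 0.05, adjusted p = 1.1e-07), and RRAGC, one of the GTPases that bring mTORC1 to the lysosome, by 0.59 (standard error 0.05, adjusted p = 5.1e-07). LAMTOR2, part of the anchor of those GTPases, fell by 0.69 (standard error 0.08, adjusted p = 6.0e-06). DEPTOR, an inhibitor of mTOR, fell by 0.53 (standard error 0.12, adjusted p = 0.00195), a call lost whichever library was left out (adjusted p up to 0.0154). RNA levels do not measure the activity of these kinases or the flux through autophagy.

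**Figure D4:**
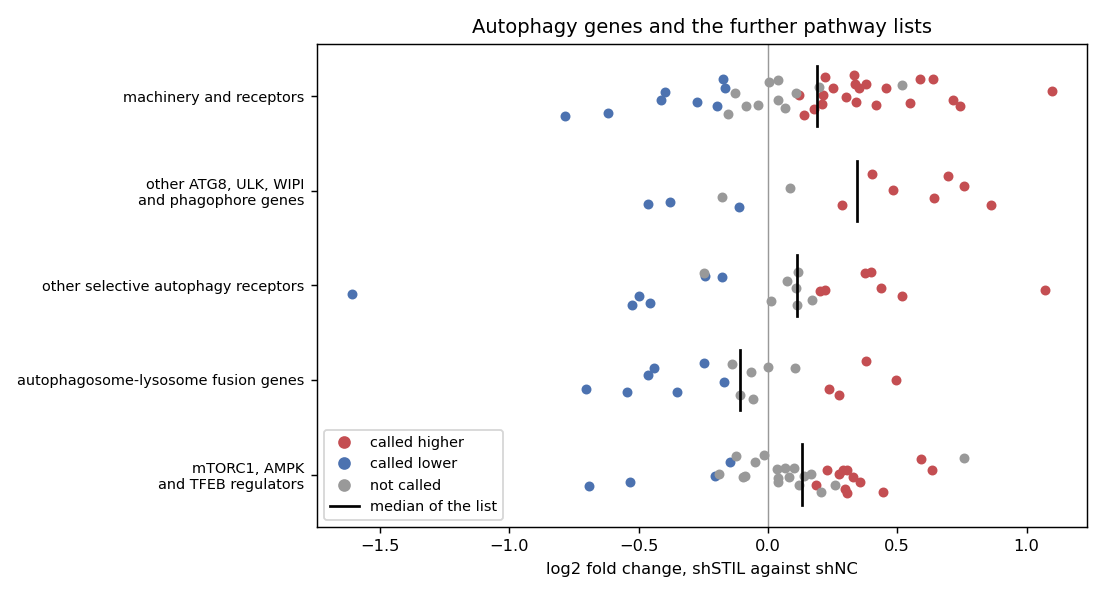
Log2 fold change of shSTIL against shNC for the 40 autophagy genes and the genes of 4 further lists, 1 point per gene, coloured by the call at an adjusted p under 0.01; black lines are medians. The medians run from -0.11 for the fusion genes to 0.34 for the other phagophore genes.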

How the data were processed

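The authors sequenced RNA on a BGISEQ-500, filtered with SOAPnuke and used Bowtie2 and RSEM on a transcriptome reference, with versions and annotation not given in the sources used here. The submitters' processing notes name the build hg38. The deposited tables hold log2 CPM of 15953 genes for 6 libraries, which the authors scaled with edgeR, and RSEM estimated counts of 15957 genes, used here for 4 libraries. All values tested here came from the deposited log2 CPM.

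Groups were compared with limma 3.58.1 (mean-variance trend, no block) in R 4.3.3 over all genes with Benjamini-Hochberg adjustment. Adjusted p-values are from this fit unless another is named, and genes under 0.01 were called, the threshold of the study. Log2 fold changes include the deposited prior count of 2 reads, which understates changes of genes with few reads. Reads were recovered from the steps of the low log2 CPM values. Over all genes 87.4% to 87.8% of them per library were whole to within 0.01 reads, and in the 4 libraries with estimated counts the largest difference from the deposited value was 0.000294 reads. They were rounded for edgeR 4.0.16 and DESeq2 1.42.0, run as alternatives. Levels per length divide CPM by the length of the longest principal transcript of GENCODE 29 (GRCh38). Intervals are 95% limma intervals.

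Values in every library are given for the 16 largest changes among the 29 called members whose groups did not overlap (mean log2 CPM from 1 up), and for the most abundant member of each role. From each further list the 2 largest called rises and falls (mean log2 CPM from 1 up) are named, and MAP1LC3B2 was added after its values were seen. The members and lists were chosen with earlier results of these data known.

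On simulated libraries of 15953 genes, limma called 23.2% of 82 genes changed by 0.4 and 67.5% of 83 genes changed by 1 on the log2 scale (those with a mean log2 CPM from 3 up), and edgeR 89% and 100%. False calls numbered 20 with limma and 0 with edgeR. With limma on genes of a mean log2 CPM from 1 up the shares were 91.5% and 100%, with 0 false calls. The fit over all genes can thus miss small changes and call genes of low level that did not change. Far fewer genes were changed in the simulation than the 7509 called in the data. These shares and false calls therefore do not carry over to the real fit, and how many changes it missed or called falsely was not tested.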

Additional observations from a re-analysis of the deposited data

How the results depend on the processing

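Of the 29 called members none changed direction under any of the 16 alternatives, and 9 were called under each of them. In the 6 fits that each left out one library 15 of the 29 kept their call throughout. Those fits gave 4900 to 5638 called genes, 13 to 17 members higher, 3 to 5 lower and a member median of 0.14 to 0.20, with the 4900 without shSTIL replicate 3, the 13 without shSTIL replicate 2 or 3, and 4 and 3 lower without shSTIL replicates 1 and 2. They have fewer libraries. Members called higher and lower numbered 14 and 5 without the mean-variance trend (lost for ATG3, ATG4B, ATG4D, ATG7, ATG9A, ATG13, ATG16L1, MAP1LC3A, GABARAP and PIK3R4), 22 and 5 under median centring (median 0.23), and 8 and 2 with limma treat against 1.2-fold, which called 3317 genes in all. Under median centring the median of all genes was 0.048, beside 0.0052 in the main fit. Of all calls 55.5% were then higher, beside 49.9% in the main fit. With only genes of a mean log2 CPM of at least 1 the member median was 0.16. Quantile normalization, a prior count of 0.5, edgeR, DESeq2 and an adjusted p under 0.05 gave 18 to 22 higher and 6 to 9 lower. Apart from fewer libraries or a minimum fold, the cause was not tested.

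Among members that were not called, the sign turned for CALCOCO2 under median centring (0.0035) and, when one library was left out, for ATG14 (-0.0052 to 0.10), ATG4A (-0.059 to 0.15), ATG9B (-0.043 to 0.32) and PIK3C3 (-0.045 to 0.072). The replicate block left 6898 called genes and 18 members higher and 6 lower. Deviations from the group mean correlated at -0.121, -0.0553 and -0.107 between libraries of one number, and 0 of 3 shNC libraries was closest to the shSTIL library of its own number. These values showed no sign of pairing by number, although 3 libraries per group are too few to exclude it. Depth limits ULK2 and ATG9B, with at most 8 reads per library. The alternatives for the genes of the 4 further lists were chosen after seeing the data.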
